A study of Arabidopsis thaliana with 4 samples.

Results

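The transcripts described here belong to 41 Arabidopsis genes that take up, move and sense inorganic phosphate or that respond when phosphate runs short. They were listed by gene name from what is known of the pathway, by a rule that uses no measured value. The list was, however, drawn up with earlier results of these data known. The members are 41 of the 37885 gene identifiers in the count table. All 4 libraries came from whole seedlings of 1 double mutant, prt6-1hyt1-1, and are numbered 1 to 4 as biological replicates. The plants had grown for 7 days in continuous light on solid, diluted MS medium with no sugar added, and received no treatment. Every library carries both mutations, so no comparison between genotypes and none between phosphate supplies was possible. PRT6 is the N-recognin of the N-degron pathway, a ubiquitin ligase that marks group VII ethylene response factors for degradation when oxygen is present. The sources used here do not tie hyt1 to a gene, and the columns of the table write hup40 where the labels write hyt1.

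Plants import phosphate at the root surface through PHT1 carriers, load it into the xylem through PHO1 and store the surplus in the vacuole. The transcription factor PHR1 binds a short palindrome called P1BS in the promoters of phosphate starvation genes, and SPX proteins hold it back while phosphate is plentiful. When phosphate is scarce, PHR1 raises the microRNA miR399, which cleaves the transcript of PHO2, an enzyme that leads phosphate carriers to degradation. The transcripts IPS1 and AT4 bind miR399 without being cleaved and so act as target mimics.

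The mature microRNAs are shown with the sites that pair with them. Sites for miR399 were searched only in IPS1, AT4 and PHO2, and sites for miR827 only in NLA. These genes were fixed in advance from what is known of them, and no other member or gene was searched. The sequences were read from the TAIR10.1 genome (RefSeq), 5′ to 3′ and in DNA letters, and capitals mark the seed, bases 2 to 8. The 6 miR399 genes share 1 seed and differ towards the 3′ end, where miR399b and the 3p arm of miR399c are the same. The miR827 seed differs from it.
ath-miR399a, chr1:10227165-10227185, plus strand: tGCCAAAGgagatttgccctg
ath-miR399b, chr1:23345387-23345407, minus strand: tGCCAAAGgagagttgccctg
ath-miR399d, chr2:14442988-14443008, minus strand: tGCCAAAGgagatttgccccg
ath-miR399e, chr2:14443582-14443602, plus strand: tGCCAAAGgagatttgcctcg
ath-miR399f, chr2:14445084-14445104, plus strand: tGCCAAAGgagatttgcccgg
ath-miR827, chr3:22122811-22122831, minus strand: tTAGATGAccatcaacaaact

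In the sites, capitals mark bases that pair with the microRNA, G:U pairs included. The IPS1 and AT4 sites each carry 3 unpaired bases in the middle, where a microRNA would cut, and 1 mismatch. The annotation places both sites inside a short reading frame. PHO2 holds 5 sites with 0 unpaired middle bases, all before its coding region, and NLA holds 1 site for miR827, also before its coding region.
IPS1, chr3:3051224-3051247, plus strand: TtGGGCAACTTctaTCCTTTGGCA
AT4, chr5:895149-895172, plus strand: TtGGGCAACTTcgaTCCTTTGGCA
PHO2 site 1, chr2:14282106-14282126, minus strand: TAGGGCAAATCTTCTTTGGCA
PHO2 site 2, chr2:14281973-14281993, minus strand: TAGGGCAtATCTCCTTTGGCA
PHO2 site 3, chr2:14281884-14281904, minus strand: TTGGGCAAATCTCCTTTGGCA
PHO2 site 4, chr2:14281827-14281847, minus strand: TCGaGCAAATCTCCTTTGGCA
PHO2 site 5, chr2:14281770-14281790, minus strand: TAGaGCAAATCTCCTTTGGCA
NLA, chr1:635401-635421, plus strand: tGTTTGTTGATGGTCATCTAA

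The libraries held between 24743656 and 26155431 counts, of which the members took 0.123% to 0.143%. PRT6 itself had 66.4 to 77.8 CPM, a count scaled to library size, so its transcript was still counted in this mutant. Where the prt6-1 mutation lies in the gene is not in the labels, so this value does not check the genotype. On the principal components of all genes past the expression filter, replicate 1 stood alone on the first (41.7% of the variance) and replicates 3 and 4 lay at opposite ends of the second (33.3%). Green shoot markers (6 of 6) and root markers (8 of 8) were counted in every library, which fits the label of whole seedlings. Root markers summed to 4935, 5946, 5306 and 5227 CPM in replicates 1 to 4, and 4 root hair markers to 25.3, 32.2, 24.2 and 33.8 CPM. Transcripts of 6 seed storage and late embryo genes summed to 120.4 CPM in replicate 2 and to 5.07 to 7.49 CPM in the other libraries. Where a transcript of whole seedlings is lower in a library, fewer cells of a type and less RNA per cell cannot be told apart.

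The phosphate genes ranged widely in level in these seedlings, and of the PHT1 uptake carriers only PHT1;1 and PHT1;4 passed the expression filter. Gene positions are on TAIR10.1, whose annotation lists every member as protein-coding. Levels are given as TPM, a share of all transcripts that divides each count by the length of the gene's exons, and the middle one of the 19205 genes that averaged 1 CPM or more stood at 14.4 TPM. Of the 41 members, 20 lay above that level, and the middle member stood at 10.1 TPM. Over all 37885 genes 9606 lay above it, which is 37.3% of the genes with a count. The 41 members include 2 with 0 counts. PAP26, a vacuolar and secreted acid phosphatase, and SQD1, which makes sulfolipid's sugar head, lay in the top 10% of genes, above 87.4 TPM. So did 1921 of all 37885 genes, which is 7.45% of the genes with a count. PHT1;3 and NPC5 had 0 counts in all libraries, and 33 members passed the expression filter. Sorted by level, 30 of 38 neighbouring pairs of members had overlapping ranges over the 4 libraries. The steps without overlap separated PAP26 from SQD1, SQD1 from PHO2, PHR1 from PAP12, LPR2 from SPX2, PDR2 from PHF1, PHF1 from NLA, NLA from SPX4, and PLDZ1 from PHL1.

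**Figure D1:**
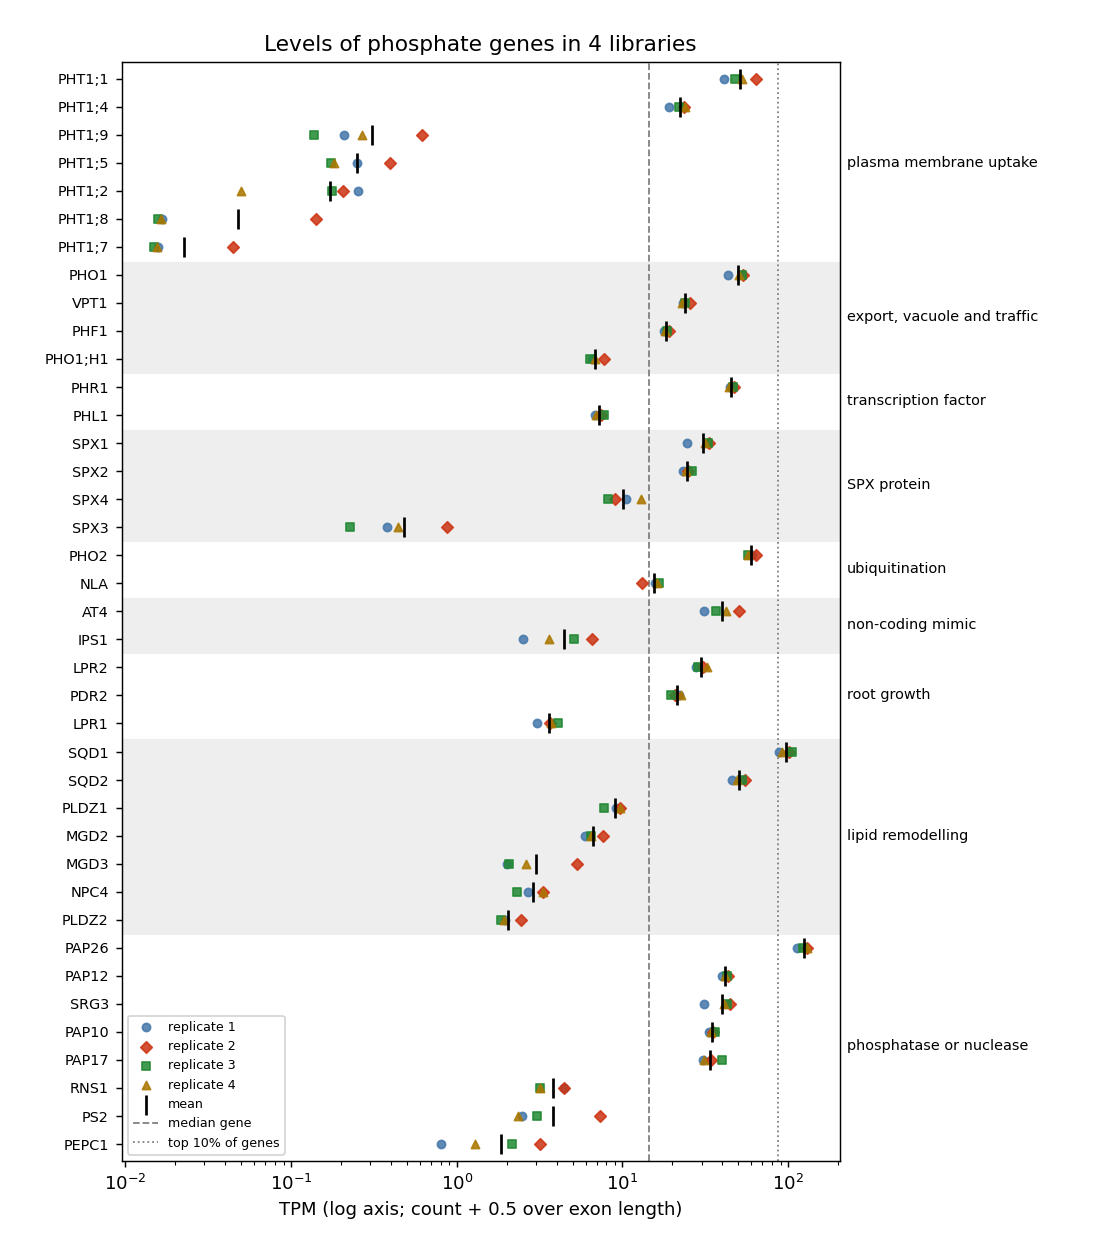
Level of each member in the 4 libraries, in TPM on a log axis, grouped by role; black bars are means, the dashed line is the middle gene (14.4 TPM) and the dotted line the start of the top 10% (87.4 TPM). PHT1;1 and PHT1;4 stand far to the right of the other PHT1 genes, and the 2 members with 0 counts, PHT1;3 and NPC5, are not drawn.

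Many of these genes differed between the replicate seedling samples by more than counting error. A chi-square test of homogeneity over the 4 counts, adjusted by Benjamini-Hochberg over all 20687 genes tested, called 22 of the 33 members tested, where it called 42.8% of all genes. The test gains power with the count. Among members with a mean count over 1000 it called 10 of 12 (65.5% of genes in that range), between 100 and 1000 it called 8 of 15 (37.8%), and between 10 and 100 it called 4 of 6 (29.9%). It says that a transcript varied between samples, not that any condition changed it. Without replicate 1 the count of called members was 14, against 26.6% of all genes. The calls of PHT1;1, AT4, SQD1, SQD2, PEPC1 and PAP17 held under every alternative tried, and the other 16 were lost under at least 1 of them.

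PHR1 (AT4G28610, chr4:14132811-14135292, minus strand), the central activator of the phosphate response, varied little, with a coefficient of variation of 5.01%. It had 49.9, 54.4, 53.9 and 49.5 CPM in replicates 1 to 4, with a level of 45.4 ± 1.54 TPM (SD, n = 4). Its chi-square adjusted p was 0.0458, just inside the threshold of 0.05. The call was lost without any one of the 4 replicates (adjusted p from 0.0672 without replicate 3 to 0.118 without replicate 4). With all 4 libraries it was also lost by raw library sizes (0.232) and by no filter on low counts (0.0532). PHL1 (AT5G29000), a close relative that acts with PHR1, had 11.1, 12.4, 13.0 and 11.2 CPM and was not called (chi-square adjusted p = 0.188). The PHR1 transcript stood 6.30 times as high as that of PHL1 per length, and the ratio was even from library to library, at a log2 ratio of 2.65 ± 0.05 (SD, n = 4). PHR1 shares 59 exon bases with a gene on the opposite strand, AT4G28600. How reads from that overlap were counted is not known, since strand use was not given.

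The SPX genes, which encode phosphate sensors that keep PHR1 off DNA, covered a wide range. SPX1 (AT5G20150, chr5:6802282-6803655, plus strand) had 18.9, 26.1, 26.1 and 24.0 CPM, low in replicate 1 and close together in the other libraries (30.5 ± 4.01 TPM, chi-square adjusted p = 7.06e-07, and 0.364 without replicate 1). SPX2 (AT2G26660) had 19.0, 20.8, 22.2 and 19.8 CPM and was not called (24.5 ± 1.25 TPM, adjusted p = 0.127). SPX4 (AT5G15330) had 9.05, 8.03, 7.35 and 11.1 CPM.
It was highest in replicate 4 (chi-square adjusted p = 2.39e-04), and that call was lost without replicate 4 (0.194). SPX3 (AT2G45130), a member known for strong induction by phosphate starvation, was close to silent, with 5, 13, 3 and 6 counts. The log2 TPM ratio to SPX1 was -6.15 ± 0.79 for SPX3, -1.60 ± 0.40 for SPX4 and, taken as SPX1 to SPX2, 0.31 ± 0.15 (SD, n = 4).

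Both target mimics were low in replicate 1 and high in replicate 2. IPS1 (AT3G09922, chr3:3050989-3051530, plus strand) had 21, 59, 46 and 31 counts, which are 0.841, 2.28, 1.81 and 1.23 CPM (chi-square adjusted p = 0.00101). Replicate 1 stood at 0.475 times the mean of the others, and without it the adjusted p was 0.0626. AT4 (AT5G03545, chr5:894582-895517, plus strand) had 18.4, 30.7, 22.6 and 25.2 CPM, and replicate 2 stood 1.39 times above the mean of the others (chi-square adjusted p = 1.53e-16). Per length, AT4 was the main mimic transcript in these seedlings, at 40.1 ± 8.34 TPM against 4.44 ± 1.75 TPM for IPS1 (SD, n = 4). The IPS1 to AT4 ratio was below 1 in each library, from -3.63 in replicate 1 to -2.84 in replicate 3 on the log2 scale.

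PHO2 (AT2G33770, chr2:14277558-14283113, minus strand), the miR399 target, had the highest level per length of the regulators, and its companion NLA (AT1G02860), a ubiquitin ligase that acts on PHT1 carriers at the plasma membrane, stood well below it. PHO2 had 160.0, 175, 158 and 152 CPM, highest in replicate 2 (59.8 ± 3.24 TPM, chi-square adjusted p = 2.42e-08, and 0.156 without replicate 2). NLA had 15.5, 13.2, 16.95 and 15.8 CPM, and it was the single member past the filter with its lowest value in replicate 2, where 22.8% of genes had theirs. Its call (chi-square adjusted p = 0.0210) was lost without replicate 2 (0.496) or replicate 3 (0.0936). The PHO2 to NLA ratio was 1.96 ± 0.23 on the log2 TPM scale and reached 2.29 in replicate 2. The precursors of the microRNAs themselves were at the edge of detection in these poly(A) libraries. MIR399A, B, D, E and F had 0 counts, MIR399C had 1 count in replicate 3, and MIR827 had 0, 1, 1 and 2 counts.

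Among the 8 PHT1 genes, PHT1;1 (AT5G43350, chr5:17399769-17402158, minus strand) and PHT1;4 (AT2G38940, chr2:16257157-16260253, plus strand), the main root carriers for phosphate uptake, passed the filter and the other 6 had at most 20 counts in any library. PHT1;1 had 52.4, 83.7, 63.5 and 67.6 CPM, lowest in replicate 1 and highest in replicate 2. The chi-square adjusted p was 2.24e-39 and the level 51.4 ± 9.64 TPM (SD, n = 4). PHT1;4 had 24.4, 30.8, 28.7 and 30.1 CPM, with replicate 1 below the rest (22.1 ± 2.12 TPM, chi-square adjusted p = 4.95e-04, and 0.531 without replicate 1). PHT1;1 stood 2.31 times as high as PHT1;4 per length, and 2.70 times in replicate 2.
The sum of root markers was also lowest in replicate 1 and highest in replicate 2, but 1 gene, PYK10, carried it, at 4581, 5617, 5057 and 4900 CPM. The other 7 root markers summed to 354, 329, 249 and 328 CPM, highest in replicate 1 and lowest in replicate 3. The part of root content in the PHT1 values was not tested.
PHT1;9 (AT1G76430), a root carrier, had 6, 20, 4 and 8 counts, PHT1;5 (AT2G32830), which moves phosphate between organs, had 7, 12, 5 and 5, and PHT1;2 (AT5G43370) had 7, 6, 5 and 1. PHT1;8 (AT1G20860) had 4 counts and PHT1;7 (AT3G54700) had 1, all in replicate 2. These genes fell below the 10 expected counts that the test required. With that filter removed, PHT1;9 (chi-square adjusted p = 0.00656) and PHT1;8 (0.0281) were called on these few counts. The chi-square p is not reliable under 10 expected counts, least of all for the 4 counts of PHT1;8. The coding sequences of PHT1;1 and PHT1;2 are 97.7% identical and those of PHT1;1 and PHT1;3 (AT5G43360) are 90.3% identical, so the split of reads among these 3 genes is uncertain. With that limit, the PHT1;1 to PHT1;2 ratio was 8.44 ± 1.15 on the log2 TPM scale.

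The genes that move phosphate onward from the uptake cells were all counted in every library. PHO1 (AT3G23430, chr3:8387398-8393467, minus strand), which loads phosphate into the xylem, had 82.5, 104, 103 and 96.7 CPM, lowest in replicate 1 (49.9 ± 4.47 TPM, chi-square adjusted p = 1.17e-14, and 0.0836 without replicate 1). Its relative PHO1;H1 (AT1G68740) had 13.3, 16.1, 13.3 and 13.8 CPM, and its adjusted p of 0.0505 fell to 0.0296 when replicate 4 was left out. PHO1 was 7.26 times as high as PHO1;H1 per length. VPT1 (AT1G63010), the importer of phosphate into the vacuole, had 55.8, 62.9, 58.8 and 54.6 CPM (23.8 ± 1.25 TPM, chi-square adjusted p = 0.00178, and 0.203 without replicate 2). PHF1 (AT3G52190), which lets PHT1 carriers leave the endoplasmic reticulum, had 20.4, 22.3, 21.9 and 20.6 CPM and was among the steadiest members (coefficient of variation 4.42%, adjusted p = 0.454).

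Of the genes that adjust root growth to phosphate, LPR2 and PDR2 lay above the middle gene and LPR1 below it. LPR2 (AT1G71040) had 43.9, 49.2, 46.5 and 51.3 CPM (29.8 ± 2.13 TPM, chi-square adjusted p = 0.00399), a call lost without replicate 1 (0.136) or replicate 4 (0.0563). LPR1 (AT1G23010), the ferroxidase with the larger known role in stopping root growth on low phosphate, had 4.403, 5.44, 6.13 and 5.37 CPM and was not called (chi-square adjusted p = 0.122). Per length it stood at 0.121 times the level of LPR2. PDR2 (AT5G23630), an ATPase of the endoplasmic reticulum that restrains LPR1, had 59.1, 57.5, 54.7 and 60.3 CPM with a coefficient of variation of 4.18%. It was not called (adjusted p = 0.101), and with raw library sizes in place of scaled ones it was (0.0117).

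Lipid remodelling replaces phospholipids of membranes with sulfolipid and galactolipid and so frees phosphate. The sulfolipid pair was high. SQD1 (AT4G33030, chr4:15935373-15937833, plus strand) had 107, 125, 133 and 112 CPM (96.6 ± 8.29 TPM, chi-square adjusted p = 5.27e-19), with replicates 2 and 3 above replicates 1 and 4. SQD2 (AT5G01220), which completes sulfolipid, had 66.4, 81.2, 78.3 and 71.3 CPM (50.6 ± 3.84 TPM, chi-square adjusted p = 1.01e-08), in the same order apart from replicates 2 and 3. SQD1 was 1.91 times as high as SQD2 per length in a ratio that varied little (log2 ratio 0.93 ± 0.06, SD, n = 4).

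The galactolipid synthases among the members, MGD2 and MGD3, were low, while MGD1, which is not a member, stood at 65.4 TPM. Of the lipid members, MGD3 (AT2G11810, chr2:4743162-4746813, plus strand) differed most between libraries. MGD3, which makes galactolipid under phosphate starvation, had 61, 173, 66 and 81 counts, or 2.44, 6.68, 2.60 and 3.20 CPM. Replicate 2 stood at 2.43 times the mean of the other libraries and above each of them by more than 1.5 times (chi-square adjusted p = 4.71e-16). Without replicate 2 the remaining 3 counts gave an adjusted p of 0.341. MGD2 (AT5G20410) had 7.20, 9.42, 8.06 and 7.78 CPM and was not called (chi-square adjusted p = 0.0811). The MGD2 to MGD3 ratio of 2.38 per length narrowed to 1.42 in replicate 2.
Of the phospholipases, PLDZ1 (AT3G16785) had 27.1, 29.2, 23.8 and 28.8 CPM, lowest in replicate 3 (chi-square adjusted p = 0.00327, and 0.447 without replicate 3). PLDZ2 (AT3G05630), the paralogue known for induction by phosphate starvation, had 109, 145, 109 and 109 counts and was not called (adjusted p = 0.137). PLDZ1 stood 4.43 times as high as PLDZ2 per length. NPC4 (AT3G03530), a phospholipase C of the plasma membrane, had 82, 107, 74 and 102 counts and was not called (adjusted p = 0.112). Its neighbour NPC5 (AT3G03540) had 0 counts, which puts NPC4 at least 21.7 times higher in each library, with NPC5 set at a floor of 3 counts per library. The coding sequences of that pair are 87.3% identical.

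The phosphatases and nucleases that free phosphate from organic molecules ranged from PAP26, the highest member, to PEPC1, which lay far below the middle gene. PAP26 (AT5G34850, chr5:13107626-13111656, minus strand) was the most abundant member, with 187, 217, 210.3 and 214 CPM and a level of 124 ± 7.51 TPM (SD, n = 4). Replicate 1 was lowest (chi-square adjusted p = 3.07e-13, and 0.376 without replicate 1). PAP12 (AT2G27190), a secreted acid phosphatase, had 44.6, 49.6, 49.9 and 46.9 CPM (41.9 ± 1.57 TPM), and its chi-square adjusted p of 0.0473 rose to between 0.0550 and 0.398 under 5 of the alternatives. PAP10 (AT2G16430), an acid phosphatase of the root surface, had 40.9, 44.2, 45.9 and 42.3 CPM and was not called (34.6 ± 1.18 TPM, adjusted p = 0.0807).
PAP17 (AT3G17790), an acid phosphatase known for induction by phosphate starvation and in senescence, had 32.2, 37.2, 43.3 and 32.5 CPM. It was highest in replicate 3 (33.9 ± 4.26 TPM, chi-square adjusted p = 6.91e-11). PAP12 and PAP17 stood at 0.337 and 0.272 times the level of PAP26 per length.
SRG3 (AT3G02040), a glycerophosphodiester phosphodiesterase, had 30.0, 44.1, 42.9 and 39.5 CPM, with replicate 1 at 0.711 times the mean of the others (39.7 ± 6.03 TPM, chi-square adjusted p = 2.19e-15, and 0.0997 without replicate 1). SRG3 shares 681 exon bases with AT3G02030 on the opposite strand. PAP17 shares 122 with AT3G17800, which had 11090 counts over the libraries against 3690 for PAP17. NLA, LPR1, PLDZ2 and PAP10 also share exon bases with genes on the opposite strand. How reads in these overlaps were counted is not known. RNS1 (AT2G02990), a secreted ribonuclease, had 3.12, 3.21, 2.32 and 2.25 CPM and was not called (adjusted p = 0.119).

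PS2 (AT1G73010, chr1:27464528-27466348, minus strand) and PEPC1 (AT1G17710, chr1:6090405-6092027, minus strand), related phosphatases that act on pyrophosphate and on phosphoethanolamine and phosphocholine, varied most of the members past the filter, with coefficients of variation of 63.6% and 57.9%. PS2 had 51, 161, 66 and 49 counts, or 2.04, 6.22, 2.60 and 1.94 CPM. Replicate 2 stood at 2.84 times the mean of the other libraries (chi-square adjusted p = 1.15e-19), and without replicate 2 the adjusted p was 0.346. PEPC1 had 17, 73, 49 and 28 counts, or 0.680, 2.82, 1.93 and 1.11 CPM. It was lowest in replicate 1, at 0.349 times the mean of the others, and highest in replicate 2 (chi-square adjusted p = 8.01e-08). Per length PS2 stood at 2.07 times PEPC1, and their coding sequences are 81.4% identical.

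**Figure D2:**
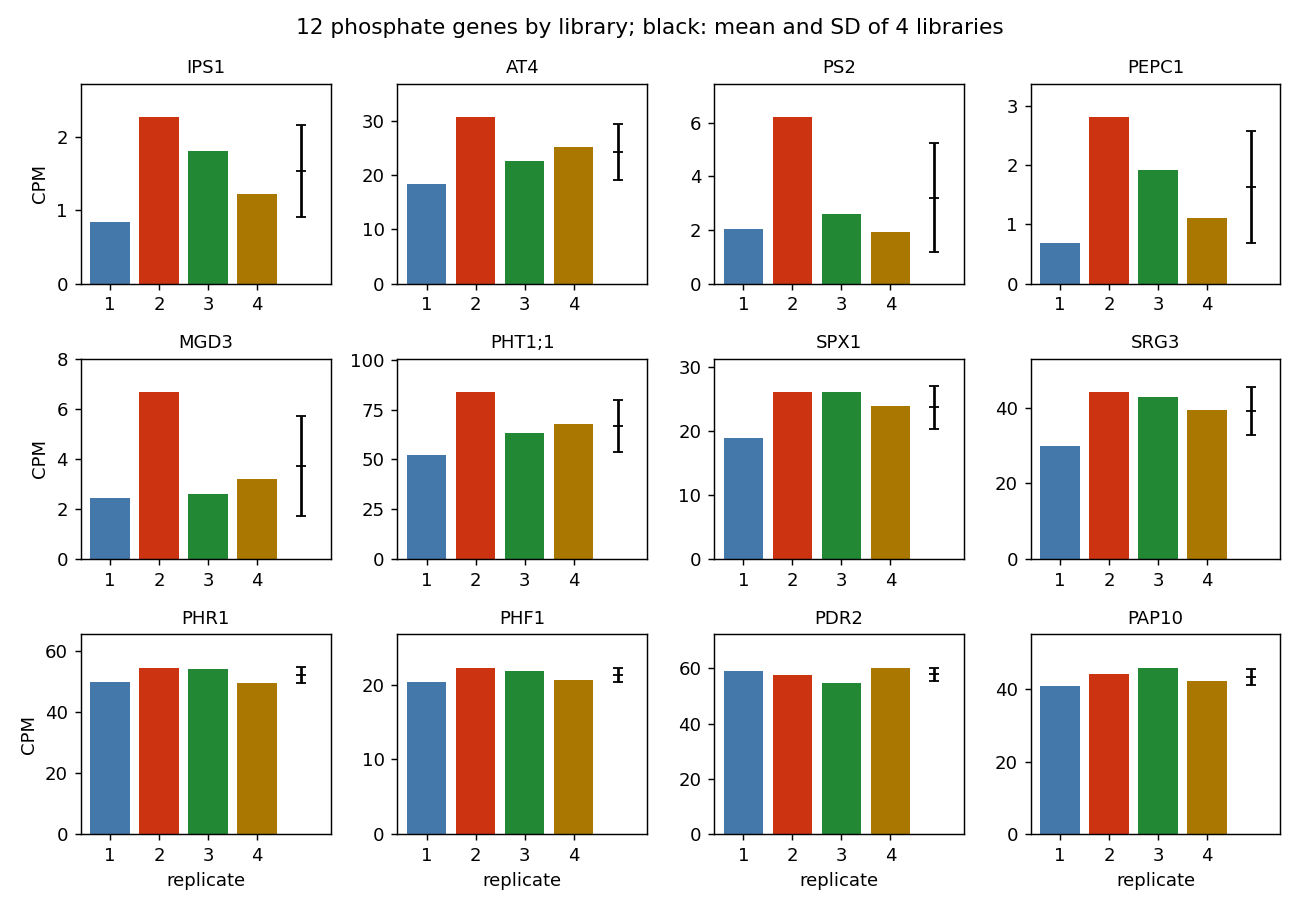
CPM of 12 members in each library (bars, from 0, with a separate scale for each gene) and, in black, the mean and SD of the 4 libraries. PS2 and MGD3 stand more than 1.5 times above every other library in replicate 2, IPS1 and PEPC1 are lowest in replicate 1, and PHR1, PHF1, PDR2 and PAP10 are nearly level.

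Within all 16 pairs of related members that could be compared, the log2 TPM ratio kept 1 sign in the 4 libraries. By CPM without length normalisation 15 did, since SPX1 lay just below SPX2 in replicate 1. The exact two-sided sign-flip permutation test gave 0.125 for each pair, and 0.125 after adjustment over the 16 pairs, which is the smallest p that 4 libraries allow.

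The spread between libraries was set against what genes of like abundance show, with the biological coefficient of variation (BCV) from edgeR, which is shrunken towards a trend with expression. Of the 33 members past the filter, 19 lay above the trend, where 34.2% of all genes past the filter did. PEPC1 had a BCV of 0.307 and PS2 of 0.293, against trend values of 0.180 and 0.148. MGD3 followed at 0.254 against 0.140 and IPS1 at 0.238 against 0.181. These 4 lay in the top 1% of all genes by BCV, at percentiles 99.9, 99.9, 99.6 and 99.3 in that order, although they are also low in abundance, where BCV is higher in general. AT4 at 0.114 against 0.0681 and PHT1;1 at 0.103 against 0.0591 were the least even of the abundant members. PHF1, PHR1, PDR2 and PAP10 lay below the trend.

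**Figure D3:**
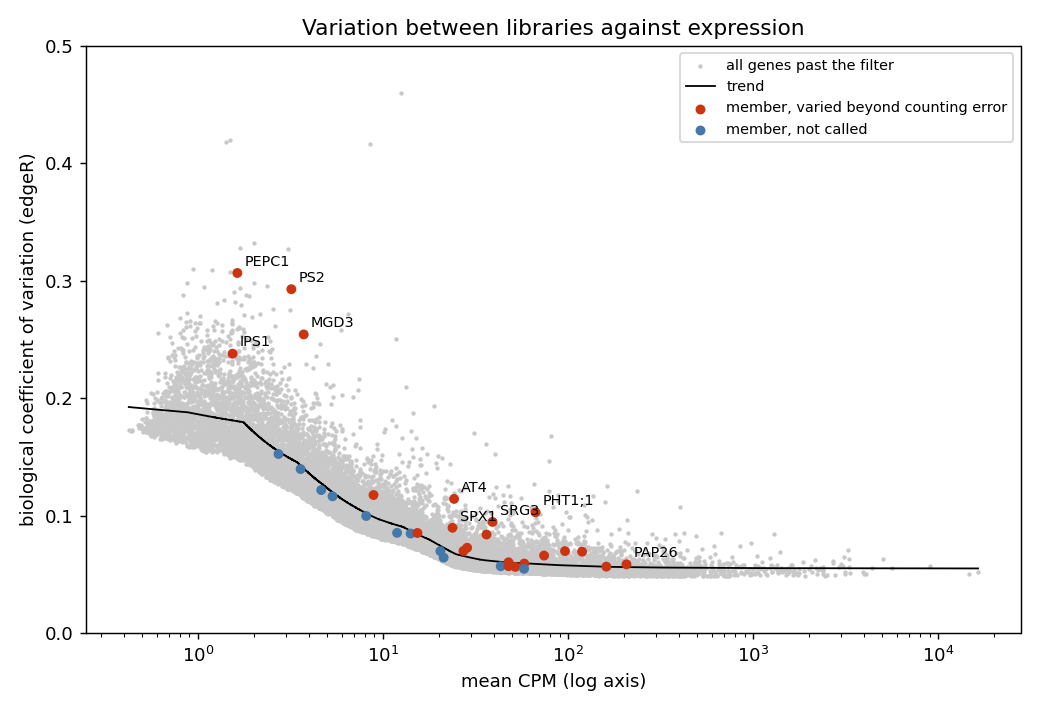
BCV of each gene from edgeR against its mean CPM on a log axis, with all genes past the filter in grey, the trend as a line and the members in red (varied beyond counting error) or blue (not called); 3 genes lie above the upper limit of 0.5. PEPC1, PS2, MGD3 and IPS1 stand above the trend at 0.238 to 0.307, and most abundant members lie close to it.

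The members leaned in 1 direction in replicates 1 and 2. Of the 33 past the filter, 21 were highest in replicate 2, where 22.8% of all genes past the filter were, and 22 were lowest in replicate 1, where 28.6% were. None of the 33 was highest in replicate 1 (28.8% of genes), 9 were highest in replicate 3 (26.4%) and 3 in replicate 4 (22.0%). Members of 1 pathway are not independent of each other, so these counts describe the 4 libraries and carry no p. The median difference from a gene's own mean was -0.12, 0.12, 0.02 and -0.03 on the log2 CPM scale in replicates 1 to 4, and 0 in each library over all genes. Most of the lean was therefore small. Of the members past the filter, MGD3 and PS2 stood in replicate 2 at least 1.5 times above every other library, as did 0.261% of all genes past the filter. Another 5 members under the filter did so on 1 to 20 counts in replicate 2 (PHT1;5, PHT1;7, PHT1;8, PHT1;9 and SPX3). At such counts 1 read against 0 is enough, and no share over all genes under the filter was counted, so these 5 add nothing to the comparison.
Both mimics, both PHT1 genes that passed, all 4 genes of export, vacuole and traffic, and 6 of the 7 lipid genes that passed had their highest value in replicate 2. The exception among the lipid genes was SQD1, which was highest in replicate 3. The 3 SPX genes that passed and the 3 root growth genes had none of their highest values there. Without replicate 2, 23 members were lowest in replicate 1 (34.9% of genes). Without replicate 1, 21 were highest in replicate 2 (32.0% of genes). Replicate 2 is also the library with seed storage transcripts, 120.4 CPM in sum, and the one with the highest PYK10 value, while the other 7 root markers were highest in sum in replicate 1. The part of seed or root transcripts in the phosphate gene values was not tested.

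**Figure D4:**
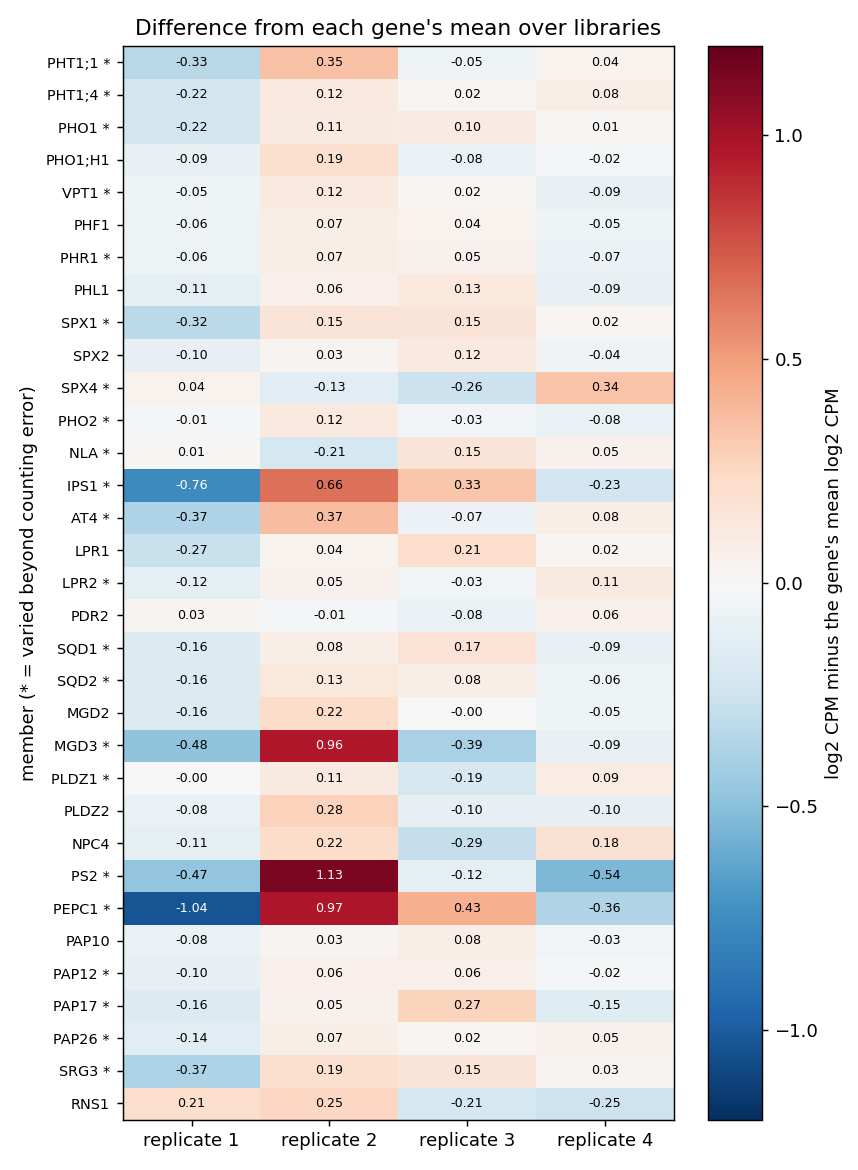
Difference of each member's log2 CPM from its own mean over the 4 libraries (columns are replicates, rows are the 33 members past the filter, red is above and blue below the mean, an asterisk marks a member that varied beyond counting error). The replicate 1 column is mostly blue and the replicate 2 column mostly red, with PS2 at 1.13, PEPC1 at 0.97 and MGD3 at 0.96 in replicate 2.

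Other genes of the pathway that are not members were read for context, from lists also chosen with earlier results of these data known. Of 23 further transporters, 10 of the 19 tested varied beyond counting error, where 42.8% of all genes did, and this share is the background for the other lists too. Replicate 1 was the lowest library for 4 of the 19 transporters past the filter and the highest for 2, where 28.6% of all genes had their lowest and 28.8% their highest value there. The highest was PHT3;1, a mitochondrial phosphate carrier, at 292.5 ± 11.6 TPM, and PHO1;H6 and PHT1;6 had 0 counts. PHT2;1, a plastid carrier at 191 ± 3.59 TPM, was level in every library and was not called (chi-square adjusted p = 0.186). G3Pp1, a glycerol-3-phosphate permease gene known for induction by phosphate starvation, had 49.0, 60.0, 59.3 and 53.2 CPM, low in replicate 1 (adjusted p = 5.70e-07).
Of 23 further regulators, 7 of the 15 tested were called, and replicate 1 was lowest for 4 of the 15 past the filter and highest for 5. WRKY75, a transcription factor induced by phosphate starvation, had 45, 98, 56 and 59 counts, highest in replicate 2 (chi-square adjusted p = 3.12e-04). ALMT1, a malate channel of the root tip, had 17.4, 13.8, 11.5 and 21.5 CPM, and HRS1, a root regulator of nitrate and phosphate signals, had 24.0, 30.0, 20.8 and 31.4 CPM. Both were lowest in replicate 3 and highest in replicate 4, as the members SPX4 and PDR2 were. STOP1, the activator of ALMT1, was the most abundant of this list at 58.2 TPM and was not called (adjusted p = 0.564).
Among 13 further lipid genes, 8 of 13 tested were called, and replicate 1 was lowest for 3 of the 12 past the filter and highest for 6. MGD1, the housekeeping galactolipid synthase of plastids, had 96.8, 90.4, 90.7 and 82.7 CPM, highest in replicate 1 (adjusted p = 3.47e-05). GDPD2, a glycerophosphodiester phosphodiesterase, had 43.3, 57.4, 63.9 and 61.7 CPM, low in replicate 1 like SRG3 (adjusted p = 9.98e-23). The lowest, GDPD3, had 9, 17, 6 and 9 counts.
Among 27 further phosphatases and nucleases, 10 of 19 tested were called, and replicate 1 was the lowest library for 9 of the 18 past the filter and the highest for 0. PAP14 had 2, 29, 3 and 12 counts (chi-square adjusted p = 2.11e-07), high in replicate 2 as PS2 was. PAP8 had 20.3, 28.1, 26.6 and 27.6 CPM, low in replicate 1 (adjusted p = 4.09e-07). PAP2 had 25.0, 28.9, 24.6 and 29.3 CPM, lowest in replicate 3 and highest in replicate 4 (chi-square adjusted p = 0.00256). RNS2, a vacuolar ribonuclease, was highest in level at 78.3 TPM, and 6 of the 27, PAP21 among them, had 0 counts.

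The promoters were searched for P1BS because PHR1 acts on many of these genes through it. The letters searched were GNATATNC, which read the same on both strands, in TAIR10.1. In the window from 250 bases before to 50 after the annotated start, 14 of 41 members held it (34.1%), against 6.13% of 37880 genes. From 1000 before to 50 after, 27 of 41 did (65.9%), against 20.5%. The members were chosen for their known part in the phosphate response, for some of which PHR1 binding is already known, so these shares describe the choice. The wider window can reach into a neighbouring gene. Of the 21 members highest in replicate 2, 8 held P1BS in the shorter window and 14 in the wider one. Of the other 12 past the filter, 3 and 6 did. Of the 22 called members 7 and 15 did, and of the 11 past the filter but not called 4 and 5 did. These splits follow the values themselves, and no share over all genes was counted for them. A link between P1BS and the values was not tested. MGD3 had no match in either window, which says only that these letters are not there.
Stretches are shown for 6 called members with P1BS before the annotated start, 1 stretch for each, both chosen after the values were seen, and all of them but PHT1;1 have further matches that are not shown. Capitals mark P1BS, on the strand of the gene. The distance of the first capital from the start is 582 bases for IPS1, 26 for AT4, 217 for PS2, 362 for PEPC1, 786 for PHT1;1 and 63 for SRG3, and the PHT1;1 stretch holds a second match 768 bases before the start.
IPS1, chr3:3050387-3050434, plus strand: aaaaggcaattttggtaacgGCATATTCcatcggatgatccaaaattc
AT4, chr5:894536-894581, plus strand: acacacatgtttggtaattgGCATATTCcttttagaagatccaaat
PS2, chr1:27466538-27466585, minus strand: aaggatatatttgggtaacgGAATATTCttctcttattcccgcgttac
PEPC1, chr1:6092362-6092409, minus strand: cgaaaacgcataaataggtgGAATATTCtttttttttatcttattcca
PHT1;1, chr5:17402917-17402964, minus strand: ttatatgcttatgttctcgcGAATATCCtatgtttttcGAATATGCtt
SRG3, chr3:350046-350093, minus strand: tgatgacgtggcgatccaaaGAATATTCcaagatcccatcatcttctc
A match is a description of the sequence and shows no binding in these seedlings.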

How the data were processed

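Poly(A)-selected RNA from 4 seedling samples was sequenced with a directional kit, per the labels' protocols. The authors deposited raw counts of reads by gene, made with HISAT2 2.1.0 and featureCounts 1.6.0 on TAIR10 according to the submitters' processing notes. Strand use, annotation version and treatment of multi-mapping reads were not given in the sources used here. Columns were matched to samples by prt6-1 and the replicate number, and a transposition in the genotype as the title of replicate 4 writes it was taken for a slip.

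Names, exon lengths, positions and sequences came from the TAIR10.1 annotation (RefSeq), which held 37882 of 37885 identifiers. Counts were never assigned by it, and of the members 36 bear the same symbol there. Library sizes for CPM were scaled by TMM, edgeR's trimmed mean. TPM used the count plus 0.5 over merged exon length. Variation beyond counting error was tested by chi-square over genes expected to have 10 or more counts in each library, with Benjamini-Hochberg adjustment at 0.05. BCV came from edgeR 4.0.16 (R 4.3.3) with an intercept-only model over the 19940 genes its expression filter kept, and DESeq2 1.42.0 gave alternative size factors and dispersions. The statistics were tested on simulated data. For the chi-square test these held counting error only, so they do not show how the test behaves on replicates that differ in biology. The chi-square p-values ask whether the counts of a gene differed between these samples by more than counting error. They depend on the count and are no measure of the size of the spread. The sign-flip p-values ask whether the genes of a pair differed in level. The reads carry no molecular identifiers, so counting error is a lower bound on technical error. Members and lists were chosen with earlier results of these data known. Values in every library are given for members above the middle level, members called, the SPX genes, the mimics and both genes of each pair. Of the other lists, the highest, the lowest and up to 5 called genes are named.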

Additional observations from a re-analysis of the deposited data

Results flagged for a closer look

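In 41 groups of 4 libraries tested for a single library apart from the rest (33 members and 8 lists of genes), 3 were flagged because the gap to the nearest library passed Dixon's limit. Chance flags about 1 in 20 groups. PLDZ2 had 5.599 CPM in replicate 2 against 4.29 to 4.36 CPM in the other libraries, a difference that the chi-square test did not call. PS2 had 6.22 CPM in replicate 2 against 1.94 to 2.60 CPM elsewhere. The 6 seed storage and late embryo genes summed to 120.4 CPM in replicate 2 against 5.07 to 7.49 CPM elsewhere. All 3 flags fall on replicate 2, and whether the PLDZ2 and PS2 values share a source with the seed storage transcripts was not tested.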

How the results depend on the processing

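The number of members that varied beyond counting error was 22. It was 21 to 22 with other size factors, raw library sizes, no filter on low counts or edgeR's likelihood ratio test with dispersion 0, and 14 to 20 when a replicate was left out. The lowest, 14, was without replicate 1, where 13 of the 22 remained called and fewer samples entered the test, and 15 was without replicate 2. Over all genes the share called was 42.8%, and 35.5% to 44.2% with the alternatives that kept every library. Without replicates 1 to 4 in turn that share was 26.6%, 35.2%, 30.9% and 35.7%, so it fell as well. By CPM without length normalisation, 4 members lay in the top 10% in place of 2. The other 41 summary values recomputed stayed within 1.5 times, such as members above the BCV trend (16 to 20) and members highest in replicate 2 (19 to 26). The 26 was over all members with a count, and over those past the filter the range was 19 to 21. Leaving out replicate 1 or 2 for the counts of highest and lowest libraries was added after seeing the data. The count highest in replicate 2 could not change without replicate 1, where 0 members were highest. The share of all genes highest in replicate 2 did change there, from 22.8% to 32.0%. By CPM, 15 of the 16 pairs kept 1 sign. For single genes and ratios, 27 calls were lost over all alternatives and 6 gained. Of the gains 4 were of members under 10 expected counts in the reported test, PHT1;9 in 3 and PHT1;8 in 1, and the others were PDR2 and PHO1;H1. The gain of PHT1;8 and 1 of those of PHT1;9 came with no filter on low counts, where the chi-square p is not reliable. Directions reversed in 0. The level of PHT1;7, from 1 count in all, moved from 0.0226 to 0.00741 TPM without the added 0.5. No paired analysis was possible because there is a single group. Depth limits the 8 members under the filter, whose counts of at most 20 give little precision.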
